A study of Mus musculus with 18 samples.

Results

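The 44 genes described here make up the interferon response of these cells as a list: genes that interferons are known to induce, together with the transcription factors that carry the signal. They were chosen by gene symbol with earlier results of these data known, so shares of members set beside those of all genes are descriptive. Each gene is represented by the probe set with the highest mean signal among those annotated to that symbol alone. Of the 44 genes, 42 had such a probe set, against 18194 named genes in all, and Isg15 and Ifi44 were not analysed here. A gene was tested where its signal reached 4.86, the median of all deposited log2 values, on at least 3 arrays. That held for 37 of the members and for 11897 of all genes. The members Ifit1, Oas3, Oasl2, Mx1 and Iigp1 stayed below that level on all or nearly all arrays and are given as values without a test.

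The samples were primary B-cell lymphoma cells from lymph nodes of Eµ-myc transgenic mice that lack Suv39h1, on a C57/Bl6 background. The Eµ enhancer drives Myc in the B lineage, and Suv39h1 is a histone methyltransferase that places trimethylation on lysine 9 of histone H3, a mark of silent chromatin. Every culture, the untreated ones included, had been transduced with retroviruses carrying Bcl2, which protects from apoptosis, and Suv39h1-ERT2, a Suv39h1 protein fused to an oestrogen receptor domain that 4-hydroxytamoxifen (4-OHT) switches on. For each of 3 lymphomas (4146, 4936 and 5043) there were untreated cells, cells after 5 days of the DNA-damaging drug adriamycin (ADR), and cells after 5 days of ADR with 4-OHT. Cells grown for a further 14 days without drug and 4-OHT formed the remaining groups: the outgrowth after ADR alone (2 arrays, since the array of lymphoma 5043 holds no values), and the small and the big cells sorted from the outgrowth after ADR with 4-OHT (3 arrays each). The design has no cells given 4-OHT alone, so an effect of 4-OHT apart from ADR cannot be told apart from that of the combination. The 17 arrays measure bulk RNA, of whole cultures or, for the big and small outgrowth cells, of sorted cells. In either, fewer cells of a type and less RNA per cell cannot be told apart.

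Interferons act through receptors at the cell surface and the JAK kinases, which phosphorylate STAT proteins. Type I interferons yield a complex with STAT2 and IRF9 that binds the interferon-stimulated response element (ISRE), and interferon gamma acts mainly through the gamma-activated sequence (GAS). Irf1 and Irf7 encode transcription factors that are themselves induced and extend the response. The induced genes encode sensors of viral RNA, enzymes that degrade RNA or stop translation, GTPases that attack the membranes around intracellular parasites, and brakes such as Usp18. In tumour cells such genes can also respond to DNA damage, through cytosolic DNA and RNA.

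The promoters of 5 members are shown as examples, chosen after the values on the arrays described below were seen. Each stretch is the 150 bases before the RefSeq start site in GRCm38.p6, given 5′ to 3′ on the strand of the gene, with the letters of an ISRE (GAAANNGAAA, on either strand) or a GAS (TTCNNNGAA, the same on both strands) in capitals. Rsad2 lies on the minus strand (chr12:26456453-26456602), and the others on the plus strand: Ifit1 (chr19:34640739-34640888), Gbp2 (chr3:142620513-142620662), Igtp (chr11:58199406-58199555) and Irf1 (chr11:53769864-53770013).
Rsad2: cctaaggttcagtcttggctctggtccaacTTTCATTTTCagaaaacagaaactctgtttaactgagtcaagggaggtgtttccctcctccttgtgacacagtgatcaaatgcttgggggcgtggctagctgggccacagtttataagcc
Ifit1: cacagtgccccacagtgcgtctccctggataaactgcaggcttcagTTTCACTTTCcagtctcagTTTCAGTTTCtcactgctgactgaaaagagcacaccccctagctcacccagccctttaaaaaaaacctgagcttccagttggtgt
Gbp2: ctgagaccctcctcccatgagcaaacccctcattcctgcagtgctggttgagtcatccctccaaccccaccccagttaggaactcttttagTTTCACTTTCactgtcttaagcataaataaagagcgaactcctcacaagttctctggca
Igtp: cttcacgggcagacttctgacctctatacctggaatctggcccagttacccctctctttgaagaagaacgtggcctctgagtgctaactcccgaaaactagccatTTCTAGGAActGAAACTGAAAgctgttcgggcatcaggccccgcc
Irf1: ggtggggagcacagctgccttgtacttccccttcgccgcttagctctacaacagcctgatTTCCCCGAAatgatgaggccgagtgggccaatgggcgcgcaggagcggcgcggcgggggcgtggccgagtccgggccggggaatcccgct

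RefSeq windows from 250 bases before to 50 bases after the start site were at hand for 32 of the 42 members. The ISRE letters occurred in the windows of 16 of these 32 genes (50%), against 1079 of 27025 genes with a window (3.99%). The GAS letters occurred in 8 of the 32 (25%), against 2582 of 27025 (9.55%), and 4 members held both: Bst2, Eif2ak2, Igtp and Oas1a. In Rsad2 the ISRE letters begin 120 bases before the start site, in Gbp2 59 bases before it, and in Ifit1 104 and 85 bases before it. Irf1 held only GAS letters, 90 bases before the start site, and Igtp held both kinds, with the GAS 45 and the ISRE 34 bases before it. Ifi35 had GAS letters only (TTCACAGAA), just after its start site. Such a match is a run of letters and not a measured binding site, and the 12 matched members without either motif (Irf7 and Irf9 among them) lack only these letters in this window.

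The deposited values carry limits that bear on every result. In each lymphoma every probe set has the same median over that lymphoma's arrays, so offsets between lymphomas had been removed, and levels compare within a lymphoma. On the first principal component the ADR array of 4936 and the big and small outgrowth arrays of 5043 scored 58.5 to 66.8, and the next highest array scored 5.94. On the same 3 arrays Xist, the RNA that silences an X chromosome in female cells, was 5.70 to 5.99 log2 units above its lymphoma's median, whereas the ADR+4-OHT array of 4146 was 3.49 below it and the next highest array, big outgrowth cells of 4936, 2.72 above it. On Xist these 4 arrays do not match the other arrays of the lymphoma on their label, so calls and member medians are also given without the 3 that stand apart or without all 4. The offset removed from each of the 4 was that of the lymphoma on its label. The gap between 3′ and 5′ Actb probe sets, which widens as RNA degrades, was smaller in the ADR cells than in the untreated cells of all 3 lymphomas, by the widest margin in 4936 (0.563 against 1.65). For Gapdh the same gap was smaller after ADR in 4146 and 5043 but not in 4936 (0.496 against 0.479). Of 12 B cell markers 11 had a probe set and 10 reached the level for testing, which Vpreb1, a part of the pre-B cell receptor, did not. Blnk, an adaptor of the B cell receptor, was at 10.5 or higher on every array, whereas Ms4a1, the surface protein CD20, ran from 3.34 in the ADR outgrowth of 4146 to 12.26 in ADR cells of 4936. The mean level of the 11 was 7.37 to 9.1 over all arrays, lowest in the ADR outgrowth of 4146, whose untreated cells had 8.52. No probe set was at hand for Suv39h1 itself, so the switch was not checked here.

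**Figure D1:**
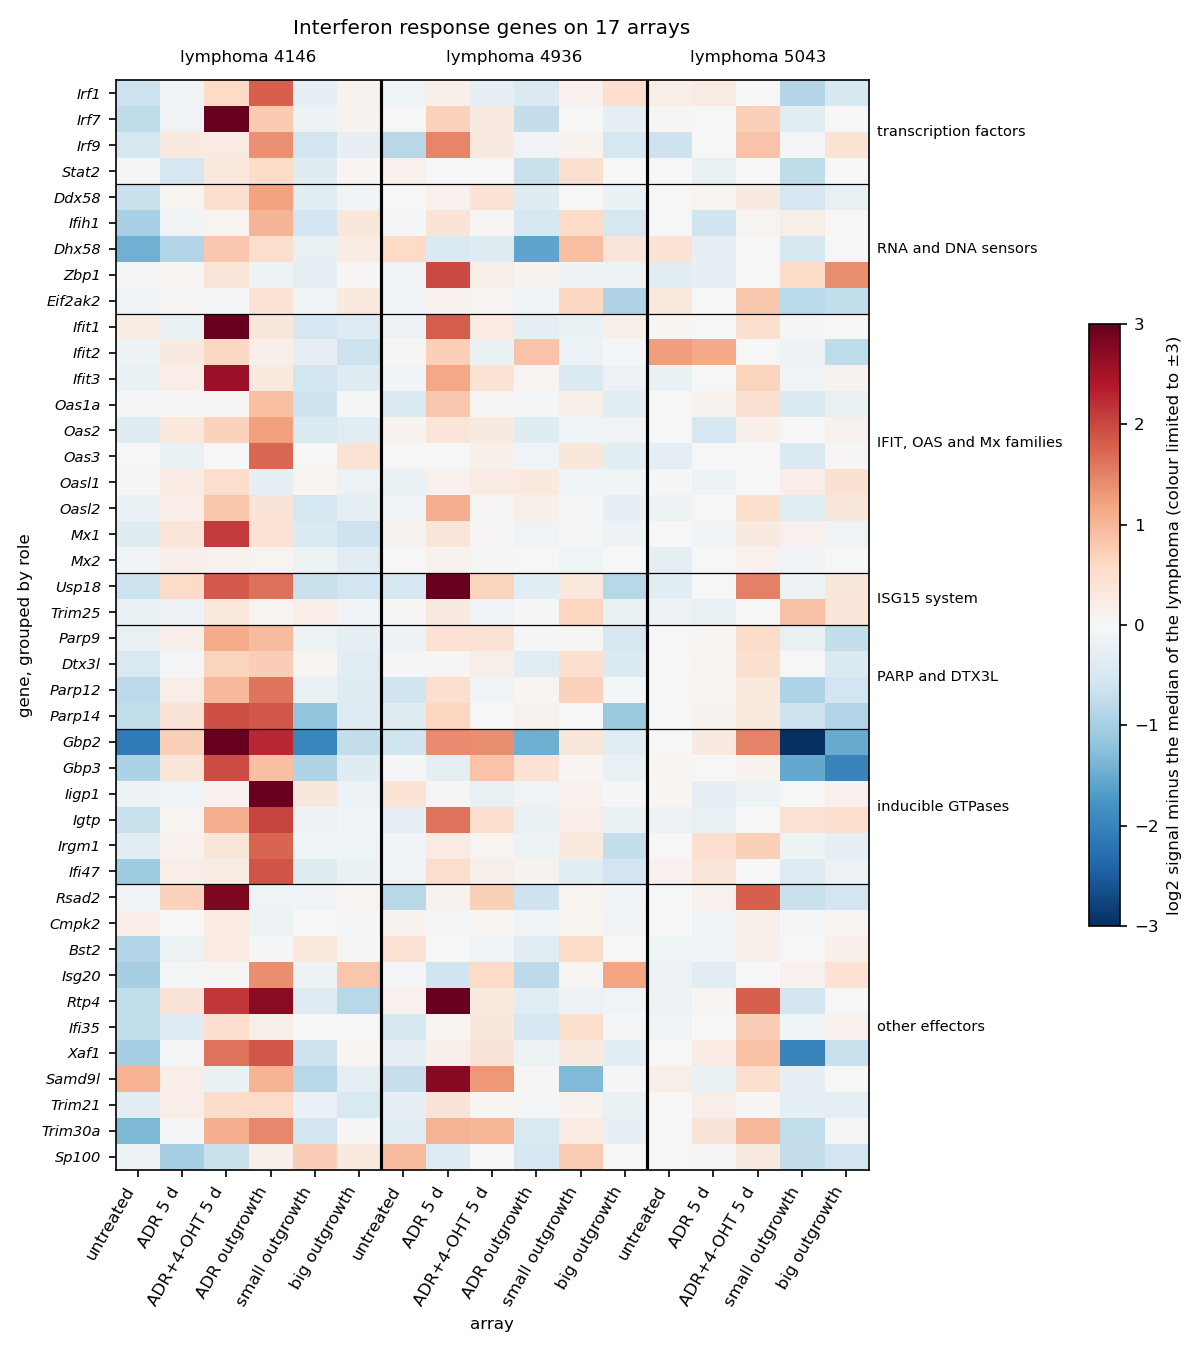
Heat map of 42 interferon response genes (rows, grouped by role) on 17 arrays (columns, grouped by lymphoma), coloured by log2 signal minus the median of the gene over the arrays of that lymphoma. The darkest red columns are ADR+4-OHT and the ADR outgrowth of lymphoma 4146 and ADR of lymphoma 4936, with 14, 19 and 11 members at least 1 log2 unit above the median.

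After 5 days of ADR with 4-OHT, Rsad2 and Ifi35 rose over untreated cells, and no member fell. Rsad2 encodes viperin, an enzyme that makes a chain-terminating nucleotide against viral polymerases, and Ifi35 an interferon-induced leucine zipper protein. Of the 37 members tested 2 were called, in a comparison that called 2.94% of all genes tested in either direction, 0.891% of them up and 2.05% down (limma with the lymphoma as a block, Benjamini-Hochberg adjusted p under 0.05 over 11897 genes). At an unadjusted p under 0.05, 12 members were higher and 0 lower, against 8.59% and 10.6% of all genes tested. The 42 members had a median difference of 0.57 on the log2 scale, against 0.00 for all genes tested, with 39 above 0 and 3 (Ifit2, Iigp1 and Sp100) below, where 50.3% of all genes tested were above 0. The difference was above 0 in every lymphoma for 29 members and below 0 in every lymphoma for 0, against 20.7% and 21.4% of all genes tested. In 26 of 42 members, untested ones included, the 3 ADR+4-OHT values lay above all 3 untreated values, as in 15.2% of all genes tested, and in 0 below them, as in 15.8%. The median was 1.12 in lymphoma 4146, 0.28 in 4936 and 0.31 in 5043, and over all lymphomas 0.57 without the 3 arrays that stand apart and 0.44 without all 4 doubted arrays. The untreated array of 4146 was itself low, with 39 of 42 members below the lymphoma's median. From that median the members of 4146 lay at a median of -0.36 in untreated, 0.08 in ADR, 0.57 in ADR+4-OHT and 0.91 in ADR outgrowth cells. This low reference enters every difference from untreated cells in 4146.

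Rsad2 (chr12:26442743-26456452, GRCm38.p6) had log2 signals of 6.46, 5.71 and 6.55 in untreated cells of lymphomas 4146, 4936 and 5043. After ADR they were 7.25, 6.66 and 6.68, and after ADR with 4-OHT 9.36, 7.27 and 8.35. In the ADR outgrowth they were 6.45 and 5.92, in small outgrowth cells 6.46, 6.62 and 5.88, and in big outgrowth cells 6.64, 6.48 and 5.98. The ADR+4-OHT values were the highest of each lymphoma, did not overlap the untreated or the ADR values, and the outgrowth values overlapped the untreated ones. The rise over untreated cells was 2.09 (SE 0.36, n = 3 per group, limma adjusted p = 0.0191), with 2.90, 1.56 and 1.80 in the 3 lymphomas. The other Rsad2 probe sets gave 2.48 and 0.97. The call stood without the 4 doubted arrays (1.63, adjusted p = 0.0180) and was lost without any 1 lymphoma, where the difference was 1.68 to 2.35 and the adjusted p 0.0645 to 0.228.

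Ifi35 (chr11:101448412-101458701, GRCm38.p6) lay at 10.13, 10.39 and 10.73 in untreated cells, again in the order 4146, 4936 and 5043. After ADR it was at 10.49, 10.92 and 10.86, and after ADR with 4-OHT at 11.37, 11.21 and 11.61. In the ADR outgrowth it was at 11.04 and 10.35, in small outgrowth cells at 10.85, 11.39 and 10.73, and in big outgrowth cells at 10.88, 10.80 and 10.98. The ADR+4-OHT values were above all untreated and ADR values and the small outgrowth value of 4936 reached the same range. The rise was 0.98 (SE 0.24, n = 3 per group, limma adjusted p = 0.0493), with 1.24, 0.83 and 0.87 in the 3 lymphomas, and the other probe sets gave 0.83 and 1.33. This call was close to the threshold. It was lost without the 4 doubted arrays (0.92, adjusted p = 0.0672), where Ifit3 passed in its place, and without any 1 lymphoma (adjusted p 0.127 to 0.276).

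Leaving out single arrays, one of 17 at a time, kept the Rsad2 call in 13 cases and the Ifi35 call in 5. The Rsad2 difference then ranged from 1.70 to 2.57 (limma adjusted p 0.0179 to 0.0878), and its call was lost without each untreated array and without the ADR+4-OHT array of 5043. The Ifi35 difference ranged from 0.85 to 1.12 (adjusted p 0.0285 to 0.177).

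**Figure D2:**
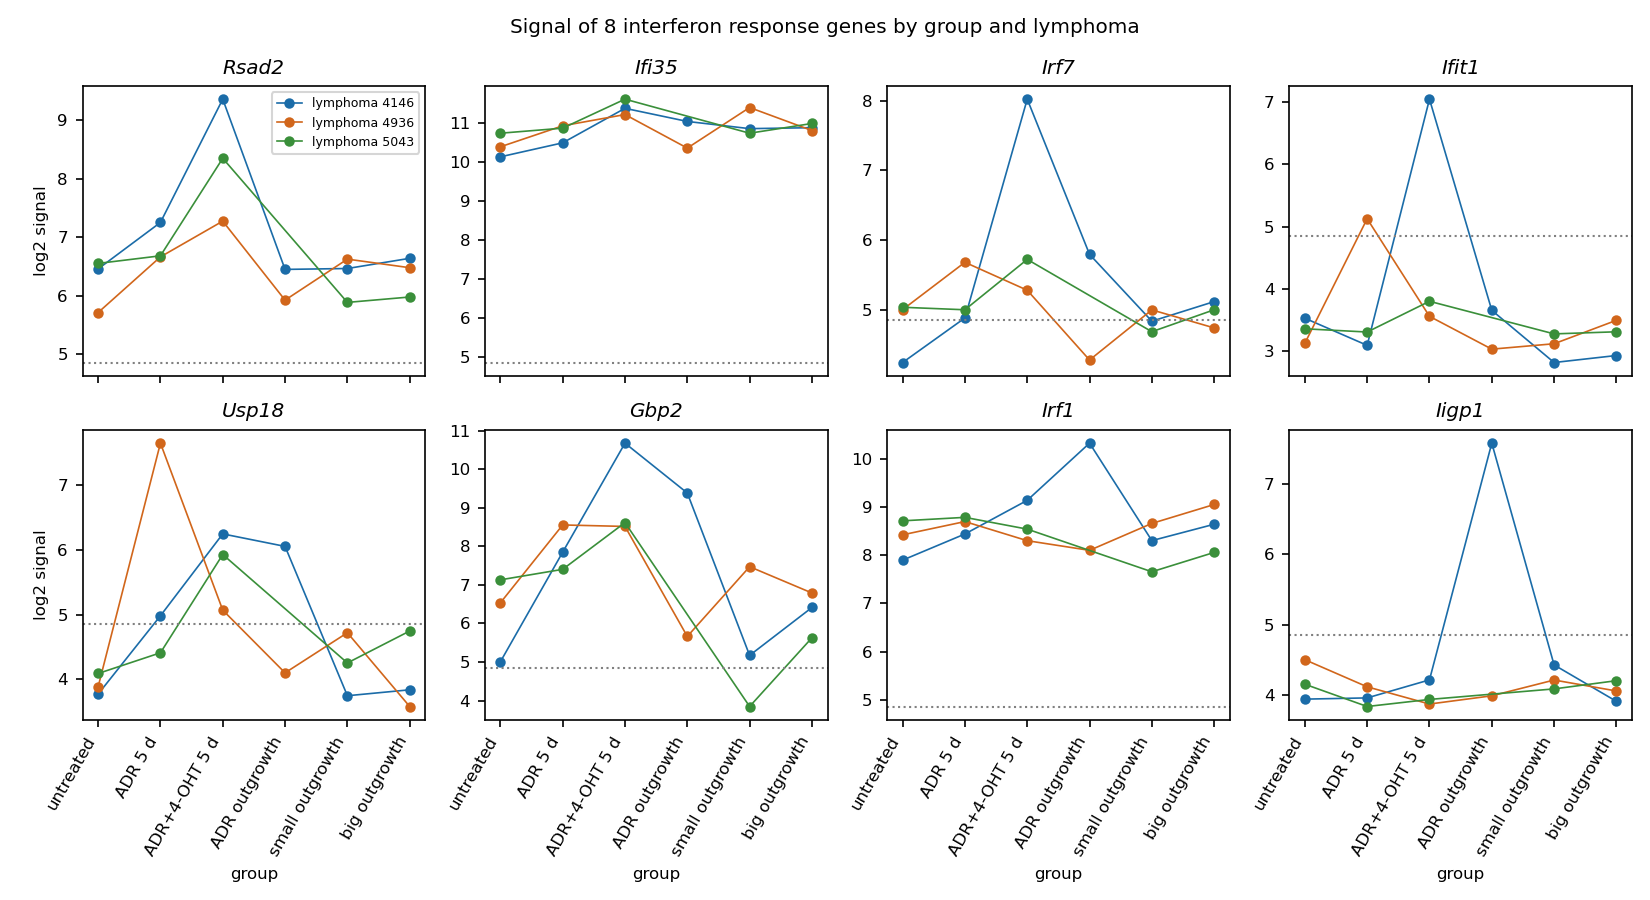
Log2 signal (vertical axes, each with its own range) of 8 members by group, with a point for each array and a line for each lymphoma; the dotted line marks 4.86, and the line of lymphoma 5043 passes over the ADR outgrowth, which it lacks. Rsad2 peaked in the ADR+4-OHT cells of all 3 lymphomas, whereas Ifit1 and Irf7 stood out in ADR+4-OHT cells of 4146 and Irf1 and Iigp1 in the ADR outgrowth of 4146.

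Among the transcription factors no member passed the test in any of the 8 comparisons. Irf7, the factor that amplifies interferon production, had signals of 4.25, 5.01 and 5.04 in untreated cells, 4.89, 5.68 and 5.00 after ADR, and 8.02, 5.28 and 5.73 after ADR with 4-OHT. Its outgrowth signals were 5.80 and 4.29 after ADR alone, 4.84, 5.00 and 4.69 in small cells, and 5.12, 4.74 and 5.00 in big cells. The value of 8.02 in lymphoma 4146 stood far above the other 16, and the ADR+4-OHT and untreated groups did not overlap. The difference was 1.58 (SE 0.57, limma adjusted p = 0.157), from 0.28 in 4936 to 3.77 in 4146.

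Irf9, the DNA-binding part of the STAT complex, was at 6.06, 5.77 and 5.98 in untreated cells, 6.87, 8.07 and 6.60 after ADR, and 6.85, 6.87 and 7.45 after ADR with 4-OHT. In the outgrowths Irf9 was at 7.96 and 6.49 after ADR alone, 6.05, 6.71 and 6.54 in small cells, and 6.34, 6.07 and 7.0 in big cells. All treated and ADR outgrowth values lay above the untreated ones, and the small-cell value of 4146 did not. The differences from untreated were 1.24 after ADR (SE 0.44, limma adjusted p = 0.372), 1.12 after ADR with 4-OHT (adjusted p = 0.190) and 1.34 in the ADR outgrowth (adjusted p = 0.999). These comparisons share the untreated arrays.

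Irf1, induced mostly through GAS elements, was at 7.90, 8.43 and 8.72 in untreated cells, 8.45, 8.70 and 8.79 after ADR, and 9.15, 8.31 and 8.55 after ADR with 4-OHT. Its outgrowth signals were 10.34 and 8.11 after ADR alone, 8.31, 8.67 and 7.66 in small cells, and 8.65, 9.06 and 8.06 in big cells. The groups overlapped, and the highest value was the ADR outgrowth of 4146. Stat2, the partner of Irf9, was near the level for testing: 5.09, 5.29 and 5.16 in untreated cells, 4.67, 5.14 and 4.94 after ADR, and 5.47, 5.17 and 5.17 after ADR with 4-OHT. Its outgrowth signals were 5.71 and 4.49 after ADR alone, 4.79, 5.63 and 4.39 in small cells, and 5.23, 5.15 and 5.17 in big cells. Stat2 varied by 1.33 log2 units over all arrays and gave 0.09 (SE 0.32, limma adjusted p = 0.929) for ADR with 4-OHT over untreated cells.

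The 5 sensors of RNA and DNA (Ddx58, which encodes RIG-I, Ifih1, Dhx58, Zbp1 and Eif2ak2, which encodes the kinase PKR) had a median difference of 0.34 between ADR+4-OHT and untreated cells, and 0 of 5 passed. All 5 fitted differences lay between 0.24 and 0.61. Zbp1, which triggers necroptosis on sensing Z-form nucleic acid, was 1.98 above its lymphoma's median in ADR cells of 4936, one of the arrays that stand apart.

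Of the 10 members of the IFIT, OAS and Mx families, which bind viral RNA, activate RNase L or block viral nucleocapsids, 6 were tested and 0 passed. Their median difference between ADR+4-OHT and untreated cells was 0.42. Ifit1, which binds RNA that lacks cap methylation, had signals of 3.53, 3.13 and 3.36 in untreated cells, 3.10, 5.13 and 3.31 after ADR, and 7.05, 3.56 and 3.80 after ADR with 4-OHT. The outgrowths had Ifit1 signals of 3.66 and 3.04 after ADR alone, 2.82, 3.12 and 3.28 in small cells, and 2.93, 3.50 and 3.31 in big cells. Only the ADR+4-OHT array of 4146 and the ADR array of 4936 exceeded 4.86, and the other 15 values may not be above background. Ifit3 gave 1.39 (SE 0.47, limma adjusted p = 0.129), with 2.79, 0.50 and 0.89 in the 3 lymphomas. Mx2 and Oasl1 varied little, with ranges of 0.49 and 0.79 log2 units over all 17 arrays.

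Usp18, which removes ISG15 from proteins and shuts down the type I receptor, was at 3.77, 3.88 and 4.09 in untreated cells, 4.98, 7.66 and 4.41 after ADR, and 6.25, 5.07 and 5.93 after ADR with 4-OHT. In the outgrowths Usp18 was at 6.06 and 4.1 after ADR alone, 3.75, 4.72 and 4.25 in small cells, and 3.84, 3.58 and 4.75 in big cells. The treated values lay above all untreated ones, which were below 4.86. The differences were 1.84 (SE 0.76, limma adjusted p = 0.215) after ADR with 4-OHT and 1.77 (adjusted p = 0.426) after ADR. Trim25, a ubiquitin ligase that activates RIG-I, differed by 0.18 and 0.08 in the same comparisons. Its other probe sets gave 0.26 and 0.50 after ADR with 4-OHT, and 0.15 and 1.18 after ADR.

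Parp9 and Dtx3l encode partners in an ADP-ribosylation and ubiquitination complex, and Parp12 and Parp14 related enzymes. All 4 had a positive difference between ADR+4-OHT and untreated cells in each lymphoma, with a median of 0.85 and 0 passing. Parp9 was nearest to the threshold at 0.83 (SE 0.23, limma adjusted p = 0.0765), from signals of 8.56, 8.64 and 8.79 in untreated cells and 9.91, 9.23 and 9.34 after ADR with 4-OHT, which do not overlap. Parp14 gave 1.09, with 2.66 in 4146, and its groups overlapped.

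The interferon-inducible GTPases (Gbp2, Gbp3, Iigp1, Igtp, Irgm1 and Ifi47), which act on vacuoles of intracellular parasites, held the member with the highest difference. Gbp2 had signals of 5.01, 6.53 and 7.13 in untreated cells, 7.85, 8.56 and 7.40 after ADR, and 10.68, 8.52 and 8.62 after ADR with 4-OHT. The outgrowths had Gbp2 signals of 9.38 and 5.66 after ADR alone, 5.17, 7.47 and 3.85 in small cells, and 6.41, 6.79 and 5.63 in big cells. Both treated groups lay above the untreated one. The difference for ADR with 4-OHT was 3.05 (SE 1.03), with 5.67, 1.98 and 1.48 in the 3 lymphomas, and the spread left a limma adjusted p of 0.132. Of the 5 tested GTPases 0 passed.

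Among the 11 other effectors 2 passed, Rsad2 and Ifi35, with a median of 0.61. Trim30a, a ubiquitin ligase that restrains inflammatory signalling, had signals of 6.21, 7.20 and 7.54 in untreated cells and 8.64, 8.54 and 8.53 after ADR with 4-OHT. The groups did not overlap, and the difference was 1.58 (SE 0.48, limma adjusted p = 0.0972). Xaf1, a pro-apoptotic factor, gave 1.38 (adjusted p = 0.222) on the probe set used and 0.00 on its other probe set, so its probe sets disagree. Sp100, a component of nuclear bodies, gave -0.39 on the probe set used and 0.80 on the other.

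After ADR alone no member passed the test, in a comparison that called 0% of all genes tested. At an unadjusted p under 0.05 limma gave 3 members higher (Irf9, Usp18 and Trim21) and 0 lower, against 5.96% and 5.37% of all genes tested. The median difference of the members from untreated cells was 0.34, against 0.02 for all genes tested, with 0.52, 0.48 and 0.06 in lymphomas 4146, 4936 and 5043. Of the 42 members 37 were above 0, where 52.3% of all genes tested were, and 22 were above 0 in every lymphoma, where 21.8% were. Without the 3 arrays that stand apart the median was 0.20, and without all 4 doubted arrays 0.21. In 15 members the ADR values lay above all untreated values, as in 11.8% of all genes tested, and in 0 below, as in 10.4%. The highest differences with 1 sign in every lymphoma were Usp18 (1.77), Gbp2 (1.71) and Rtp4, a chaperone of chemosensory receptors (1.41, adjusted p = 0.537). Usp18 gave 1.21, 3.77 and 0.32 in 4146, 4936 and 5043, and Rtp4 1.11, 2.91 and 0.20. The ADR array of 4936 is among those that stand apart. All untreated values of Usp18 and Rtp4 were below the level for testing, and so were their ADR values in 5043. Rtp4 was also below it after ADR in 4146. Both genes reached that level only on ADR, ADR+4-OHT and ADR outgrowth arrays, 6 for Usp18 and 4 for Rtp4. Stat2 (-0.27) and Cmpk2, a mitochondrial nucleotide kinase (-0.16), were the members below 0 in every lymphoma, as were 19.5% of all genes tested. Their other probe sets, both too low for testing, gave 0.01 for Stat2 and 0.51 for Cmpk2, so the Cmpk2 probe sets disagree.

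The cells given ADR with 4-OHT were also set against those given ADR alone; no cells without the Suv39h1 fusion were measured, so an effect of the fusion protein and one of 4-OHT itself cannot be told apart. No member passed between ADR+4-OHT and ADR cells, where 0% of all genes tested were called. At an unadjusted p under 0.05 limma gave 2 members higher (Rsad2 and Ifi35) and 0 lower, against 4.93% and 7.6% of all genes tested. The median was 0.22, against -0.02 for all genes tested, with 0.55 in 4146, -0.20 in 4936 and 0.30 in 5043. Of the 42 members 35 were above 0, where 47% of all genes tested were, and 14 were above and 0 below 0 in every lymphoma, where 16.9% and 22% were. In 9 members the ADR+4-OHT values lay above all ADR values, as in 9.01% of all genes tested, and in 0 below, as in 13.5%. Rsad2 had the highest difference with 1 sign in all lymphomas, 1.46 (SE 0.36, adjusted p = 0.193), with 2.11, 0.61 and 1.67. Gbp3 followed with 0.95 (adjusted p = 0.455) and Xaf1 with 0.85 (adjusted p = 0.569). The other Xaf1 probe set gave -1.78, so the probe sets of Xaf1 disagree here too. On the ADR array of 4936, which stands apart, Samd9l was at 11.36 against a median of 8.63 in that lymphoma, and Usp18 and Rtp4 were at 7.66 and 7.21, against medians below 4.86. Without the 3 arrays that stand apart the member median was 0.44, and without all 4 doubted arrays 0.37.

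**Figure D3:**
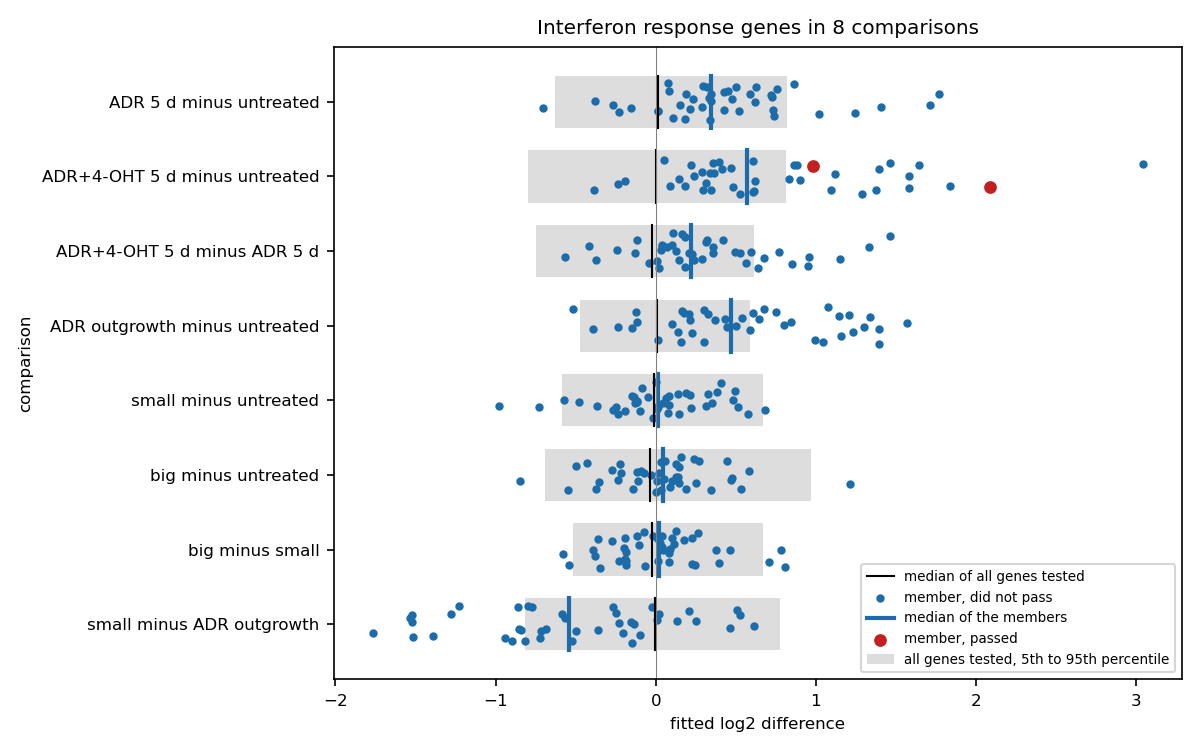
Fitted log2 differences (horizontal axis) of 42 members in 8 comparisons, with grey bars from the 5th to the 95th percentile of all genes tested, black and blue lines for the medians of all genes tested and of the members, and red points for the members that passed. Rsad2 and Ifi35 were the only red points, both for ADR with 4-OHT over untreated cells, where the member median was 0.57.

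In the outgrowth after ADR alone no member passed against untreated cells, where 0% of all genes tested were called. At an unadjusted p under 0.05 limma gave 4 members higher (Irf9, Parp12, Irgm1 and Ifi47) and 0 lower, against 2.55% and 1.94% of all genes tested. The median was 0.47, against 0.01 for all genes tested, with 36 members above 0, where 51.7% of all genes tested were. It rested on lymphoma 4146, where it was 1.37, while in 4936 it was -0.04, and without 4146 the fitted median was -0.15. The median was 0.45 without the 3 arrays that stand apart and 0.48 without all 4 doubted arrays. In 8 of 42 members the outgrowth values lay above all untreated values, as in 11.3% of all genes tested, and in 1 (Cmpk2) below them, as in 10.9%. The other Cmpk2 probe set, too low for testing, gave a difference of 0.48. With 1 sign in both lymphomas the highest were Ifi47 (1.40; 2.95 and 0.23), Irf9 (1.34; 1.90 and 0.71) and Parp14 (1.30; 2.60 and 0.45).

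For small cells against untreated cells 0 of 37 passed, where 0% of all genes tested were called, and limma gave 2 members higher and 0 lower at an unadjusted p under 0.05, against 3.4% and 4.9% of all genes tested. The median was 0.01, with 24 members above 0 and 18 below, where 48.7% of all genes tested were above 0. The groups did not overlap in 3 members with higher and 1 with lower small-cell values, as in 9.1% and 9.2% of all genes tested. Without the 3 arrays that stand apart the median was 0.13, and without all 4 doubted arrays 0.22. Trim25 had the highest difference with 1 sign in every lymphoma, 0.68 (adjusted p = 0.510), followed by Ifi35 with 0.58 (adjusted p = 0.572) and Igtp with 0.52. Samd9l, an antiviral growth suppressor, had the lowest, -0.98 (adjusted p = 0.724), then Ifit2 with -0.57 and Ifit1, which was not tested, with -0.27. On its other probe sets Trim25 gave 0.78 and -0.38.

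For big cells against untreated cells 0 of 37 members passed, where 0.412% of all genes tested were called (0.286% up and 0.126% down), and limma gave 1 member higher (Isg20) and 1 lower (Ifit2) at an unadjusted p under 0.05, against 6.4% and 9.89% of all genes tested. The median was 0.04, against -0.04 for all genes tested, with 25 members above 0, where 45.9% of all genes tested were. The groups did not overlap in 3 members with higher and 1 with lower big-cell values, as in 13.1% and 16.7% of all genes tested. The member median was -0.03 without the 3 arrays that stand apart and -0.02 without all 4 doubted arrays. Isg20, an exonuclease that degrades RNA, was at 7.46, 8.43 and 8.29 in untreated cells and at 9.29, 9.64 and 8.89 in big cells. The groups did not overlap, and the difference was 1.21 (SE 0.46, limma adjusted p = 0.242). Irf9 gave 0.53 and Ifi35 0.47, and Ifit2 gave -0.85 (adjusted p = 0.277), Parp9 -0.37 and Mx1, which was not tested, -0.22.

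Between big and small cells of the same outgrowth 0 of 37 members passed, where 0% of all genes tested were called, and limma gave 0 members higher and 2 lower (Dtx3l and Trim25) at an unadjusted p under 0.05, against 4.62% and 5.82% of all genes tested. The median was 0.02, with 23 members above 0, where 46.7% of all genes tested were. The groups did not overlap in 1 member with higher and 2 with lower big-cell values, as in 8.99% and 12.8% of all genes tested. Without the 3 arrays that stand apart, and also without all 4, the median was -0.09. Isg20 was the highest with 1 sign in every lymphoma at 0.80 (adjusted p = 0.60), then Samd9l at 0.71 and Zbp1 at 0.40. Dtx3l was the lowest at -0.58 (adjusted p = 0.454), then Trim25 at -0.54 and Parp9 at -0.39.

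Small outgrowth cells after ADR with 4-OHT were lower than the outgrowth after ADR alone in 33 of 42 members, with a median of -0.54 against -0.01 for all genes tested, of which 49.4% were above 0. The small cells had been sorted and the ADR outgrowth had not, so 4-OHT and sorting cannot be told apart here. None of the 37 tested members passed, where 0% of all genes tested were called, and limma gave 0 members higher and 3 lower at an unadjusted p under 0.05, against 5.08% and 8.36% of all genes tested. Here too the lymphomas differed, with a median of -1.31 in 4146 and 0.40 in 4936, and without the 3 arrays that stand apart, and also without all 4, it was -0.57. With 1 sign in both lymphomas the lowest were Parp14 (-1.54, adjusted p = 0.321), Ifi47 (-1.39) and Samd9l (-1.28), and the highest were Sp100 (0.52), Trim25 (0.51) and Bst2, the tethering factor that holds virions at the cell surface (0.46). The other Sp100 probe set gave -0.91, and the other Trim25 probe sets gave 0.57 and -0.70. In 8 members the small-cell values lay below both ADR outgrowth values, as in 17.2% of all genes tested, and in 3 above, as in 15.8%.

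The high values of the members were gathered on 3 arrays, which were singled out after their values were seen. Of these, the ADR+4-OHT array of 4146 and the ADR array of 4936 are among the 4 that do not match their label on Xist, and the ADR array of 4936 also stands apart on the first principal component. The ADR+4-OHT array of 4146 had 14 of 42 members (33.3%) at least 1 log2 unit above the lymphoma's median, where 2.91% of all genes tested were. The ADR outgrowth array of 4146 had 19 (45.2%, against 1.86%), and the ADR array of 4936 had 11 (26.2%, against 7.78%). No other array had more than 4, the number in ADR+4-OHT cells of 5043 (Usp18, Gbp2, Rsad2 and Rtp4). The highest value of a member lay on one of these 3 arrays for 34 of 42 members. The share over all genes was not computed, and the 3 arrays were singled out by such values. Usp18, Gbp2, Igtp, Rtp4 and Trim30a were high on all 3. On each of the 3 arrays 4 of the high members had a median below 4.86 (Usp18 and Rtp4 on all, with Ifit1, Mx1, Iigp1, Oas3 or Oasl2), so their distance from it may be understated. On the ADR outgrowth array of 4146 the markers of cell types differed as well from those of the untreated array of 4146: the B cell mean was 7.37 against 8.52, the macrophage mean 5.20 against 4.36, and the T and NK cell mean 4.85 against 4.22. In ADR, ADR+4-OHT, big and small cells of 4146 the macrophage mean was 5.03, 5.34, 5.22 and 4.52, and the T and NK mean 4.52, 3.41, 4.83 and 4.90. By these means ADR+4-OHT and big cells were above the ADR outgrowth for macrophages, and small cells for T and NK cells. Of the 16 macrophage markers 7 were below 4.86 on all arrays. The ADR, big and small arrays of 4146 had 0 members at least 1 log2 unit above the median. Itgam, an integrin of myeloid cells, was at 8.23 in the ADR outgrowth against 3.65 in untreated cells of 4146, and Cd68 at 9.36 against 7.40. Both were highest there among the arrays of 4146, whereas Lyz2 was highest in ADR+4-OHT cells, at 10.17. The higher T and NK mean rested on Cd3g, which encodes a CD3 chain (6.23 against 0.513), and Klrd1 (4.145 against 2.325). Neither gene met the filter for testing. The other markers of that list, Cd3e, Cd4, Cd8a, Nkg7, Gzmb, Ncr1 and Cd2, were lower in that outgrowth than in untreated cells of 4146. The part of these shifts in the members' values was not tested.

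Both arrays of 4146 had 7 members in common at that height, 50% of the 14 and 36.8% of the 19. Each of them also shared 7 with the ADR array of 4936. How many members unrelated lists of these sizes would share was not computed, nor was the share over all genes. On the ADR+4-OHT array Irf7 was 3.02 above the median, Rsad2 2.81 and Ifit3 2.58, and on the ADR outgrowth array they were at 0.79, -0.10 and 0.29. Irf1 was 1.79 above the median on the ADR outgrowth array and 0.60 above it on the ADR+4-OHT array. Of the GTPases, Gbp2, Gbp3 and Igtp were 3.54, 1.96 and 1.10 above the median on the ADR+4-OHT array and 2.25, 0.91 and 2.02 above it on the ADR outgrowth array. Ifi47 and Irgm1 were at 0.22 and 0.36 on the first and at 1.88 and 1.76 on the second. For members with a median below 4.86 the levels themselves are given. Ifit1 was at 7.05 and Mx1 at 5.55 on the ADR+4-OHT array, and both were below 4.86 on the ADR outgrowth array. Iigp1 was at 7.59 and Oas3 at 5.80 on the ADR outgrowth array, and both were below 4.86 on the ADR+4-OHT array. Rtp4 was above that level on both, at 6.28 and 6.87. Each list comes from 1 array, so there is no replicate of this contrast.

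**Figure D4:**
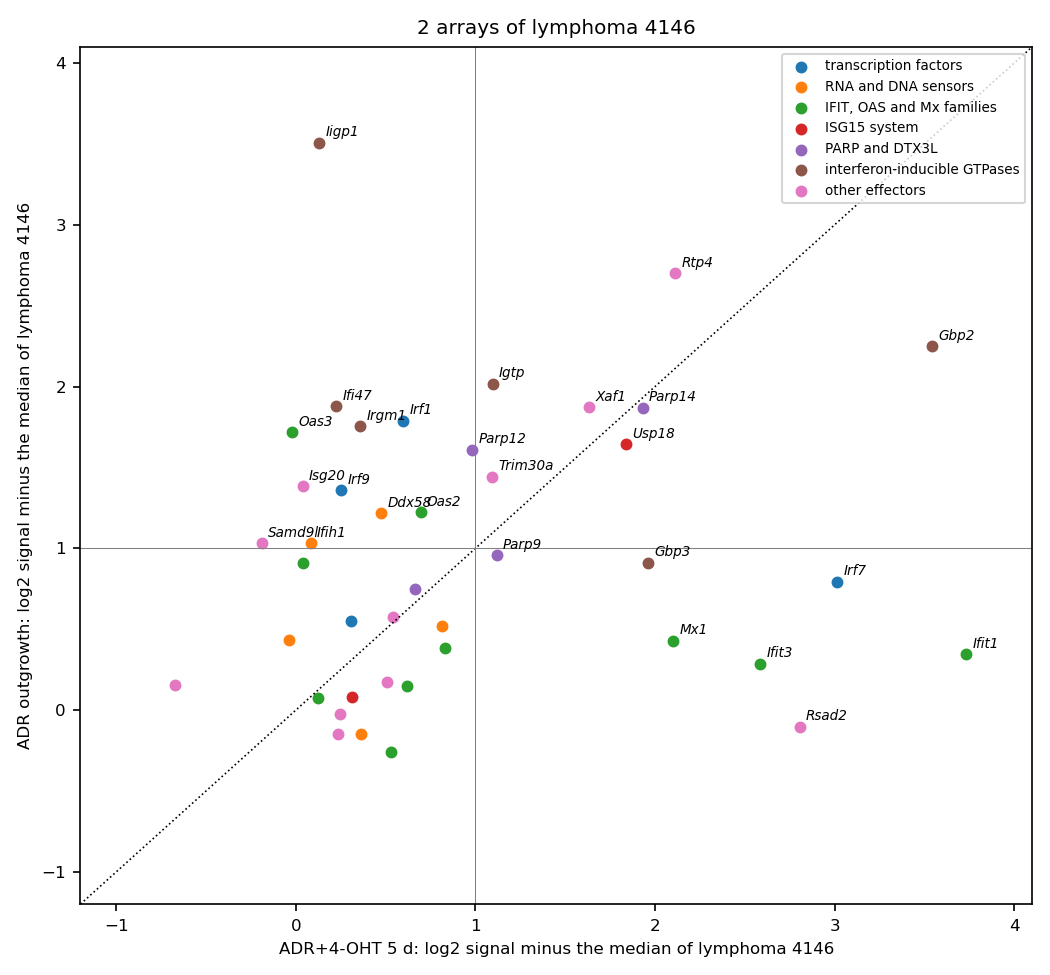
Log2 signal minus the median of lymphoma 4146 for 42 members on the ADR+4-OHT array (horizontal axis) and the ADR outgrowth array (vertical axis), coloured by role; the dotted line marks equal values, and members at least 1 above the median on either array are named. Ifit1, Irf7, Rsad2, Ifit3 and Mx1 lie to the lower right, and Iigp1, Oas3, Ifi47, Irgm1 and Irf1 to the upper left; the medians of Ifit1, Mx1, Iigp1 and Oas3 are below 4.86.

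Markers of other cells moved with some of these groups. The mean level of 16 macrophage markers was 4.15 to 4.57 in untreated cells, 5.01 to 6.80 after ADR and 5.19 to 5.70 after ADR with 4-OHT, and 7 of the 16, among them C1qa, C1qb and Cd163, were below 4.86 on all arrays. Lyz2, a lysozyme of macrophages, reached 14.49 in ADR cells of 4936 and rose by 5.87 after ADR with 4-OHT (limma adjusted p = 0.0272; 6.06 and 0.00578 without the 4 doubted arrays), from untreated levels of 4.75, 5.51 and 2.79 that are partly below 4.86. The mean of 9 fibroblast markers was 4.23 to 4.72 in untreated cells, 5.53 to 6.96 after ADR and 6.36 to 7.35 in big outgrowth cells, with Bgn reaching 12.01 in big cells of 4936. The part of such cells in the differences of the members was not tested. T and NK cells are a source of interferon gamma, and their 9 markers, of which 4 were tested, had means of 3.41 to 4.90 over all arrays. Cd2 ran from 3.70 in ADR+4-OHT cells of 4146 to 8.87 in small outgrowth cells of 4146, and Cd3g from -0.55 to 6.23, the latter in the ADR outgrowth of 4146. In that outgrowth Cd3e, Cd4 and Cd8a were lower than in untreated cells of 4146. Ifng itself was highest on that ADR outgrowth array, at 4.22, and was below 4.86 on all 17 arrays.

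Other genes of the pathway, 66 in 6 lists, had a probe set for 58 and were tested for 47. Of these, 1 passed in any comparison: Ptpn2, a phosphatase that dephosphorylates JAK and STAT proteins, fell by 0.61 after ADR with 4-OHT (SE 0.14, limma adjusted p = 0.0436), with -0.50, -0.68 and -0.64 in the 3 lymphomas. The call was lost without the 3 arrays that stand apart (adjusted p = 0.0682) and without all 4 doubted arrays (-0.69, adjusted p = 0.0589). Of the 5 interferon ligands with a probe set 4 were below 4.86 on all arrays, and Ifna1, the 1 tested, gave 0.38 (adjusted p = 0.240). Of 9 receptors and JAK kinases 0 of 9 passed after ADR with 4-OHT, with the largest difference for Il10rb, a receptor subunit of interferon lambda (1.0, adjusted p = 0.159). Of 11 tested genes between the sensors and the interferon genes 0 passed, with the adaptor Ticam1 highest at 0.98 (adjusted p = 0.111). Of 12 tested genes of ISG15 transfer and MHC class I 0 passed, with Nlrc5, the activator of MHC class I genes, highest at 1.11 (adjusted p = 0.322). Ccl5, a chemokine that draws T cells, gave 2.41 (adjusted p = 0.162), and of the 3 tested chemokines and ligands 0 passed. In lymphoma 4146 Ccl5 was at 2.46 in untreated cells, which may not be above background, at 7.07 after ADR with 4-OHT and at 8.43 in the ADR outgrowth.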

How the data were processed

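Per the submitters' processing notes the arrays were processed with Partek and RMA, and the authors deposited log2 values per probe set; no version is given in the sources used here. Of 45101 probe sets 34958 have 1 gene symbol, 932 several and 9211 none listed, and symbols were updated through gene identifiers. The highest correlation between arrays was 0.993, so no array was counted as a copy. Groups were compared with limma 3.58.1 in R 4.3.3 (lmFit and eBayes), 1 probe set a gene, with group and lymphoma as terms over all 17 arrays. The block comes from the labels' protocols, which give each lymphoma both treatments. The median SE between groups of 3 was 0.22 on the log2 scale, and the number of arrays limits the precision. The code was tested on simulated data. Members and lists were chosen with earlier results of these data known. Values on every array were set for members that passed and for Irf7, Irf9, Irf1, Stat2, Usp18 and Ifit1, and the 3 highest and 3 lowest members with 1 sign in every lymphoma are named; other members given by value were chosen after their values were seen. Nothing states whether a lymphoma's cultures were separate before treatment, so p-values measure the spread between these arrays. Alternatives were another filter, other probe sets, normalization, weights and sets of arrays. Promoter sequences are from RefSeq (GRCm38.p6).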

Additional observations from a re-analysis of the deposited data

Results flagged for a closer look

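Gbp3, an interferon-induced GTPase, was singled out because its differences between cells with and without 4-OHT had opposite directions at the 2 times in every lymphoma with values. In the outgrowth the small cells had been sorted and the cells after ADR alone had not. There 4-OHT and sorting cannot be told apart. At 5 days ADR+4-OHT cells were above ADR cells by 1.60, 1.14 and 0.10 in lymphomas 4146, 4936 and 5043, and in the outgrowth small cells minus the outgrowth after ADR alone gave -1.81 and -0.39 in 4146 and 4936. The difference of these differences, an analysis chosen after seeing the data, was -2.17 on the log2 scale (limma adjusted p = 0.428). It did not pass, nor did any of 11897 genes, of which 1129 had an unadjusted p under 0.05.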

How the results depend on the processing

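Without the replicate block for lymphoma the counts over all genes were 623 for ADR with 4-OHT over untreated cells (350 with it), 112 for big cells over untreated (49 with it), 30 for big over small cells, 13 for ADR with 4-OHT over ADR, and 1 each for ADR and for small cells over untreated (0 with it). With array weights, a fit that stopped before it converged, they were 1583, 1421, 261, 1099, 18 and 25 in that order. With only the arrays of the groups compared, ADR with 4-OHT and big cells over untreated gave 0 and 0, and the mean over probe sets gave 212 for ADR with 4-OHT over untreated and 1 over ADR. Without the 3 arrays that stand apart, big cells over untreated gave 80 and big over small cells 3; without these and ADR+4-OHT of 4146, ADR with 4-OHT over untreated gave 779 and big over small cells 2. Members called for ADR with 4-OHT over untreated (2 in the main analysis) were 1 (Rsad2) with no filter (Ifi35 adjusted p = 0.0580) and with quantile normalization (0.0543), 0 with only these groups, and 5 with array weights (Ifi35, Irf9, Parp9, Rsad2 and Trim30a). Array weights also called Ifi35 over ADR (1 member) and Isg20 in big cells over untreated (1 member). Without any 1 lymphoma 0 members were called in each comparison, and without any 1 array 0 to 4 for ADR with 4-OHT over untreated. Over all genes, leaving out a lymphoma gave 0 to 7 calls for ADR with 4-OHT and 0 to 108 for big cells over untreated. Of 112 alternative medians of the members 111 moved by less than the SD of the medians of the lymphomas. In both comparisons with the ADR outgrowth that spread was wide enough to hold a change of sign. The count is therefore no measure of stability. For small cells over untreated, leaving out lymphomas gave -0.041 to 0.26. The ADR outgrowth median over untreated ranged from -0.15 to 1.0, and that of small cells over the ADR outgrowth from -1.2 to 0.17. Xaf1 for ADR with 4-OHT over ADR turned to -0.47 with the mean over probe sets, and Sp100 for small cells over the ADR outgrowth to -0.19 with that mean and, without a lymphoma each, to -0.13 (without 4936) to 0.93; the cause was not tested.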
